A study of Mus musculus with 6 samples.

Results

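The genes described here are Tnf, its receptors Tnfrsf1a and Tnfrsf1b, and genes that carry, follow or restrain the signal of the ligand (Tnfaip2, Tnfaip3, Tnip1, Traf1, Traf2, Birc2 and Birc3). They were taken by gene symbol from the Cufflinks output of 6 RNA-seq libraries, and are 10 of the 24304 symbols found in all libraries. All 10 passed the threshold of 1 FPKM on average (fragments per length of transcript and per sequencing depth), as did 10392 genes in all. The libraries came from bone marrow-derived macrophages (BMMs) of C57BL/6 mice at postnatal day 28, grown for 7 days in macrophage colony-stimulating factor (50 ng/ml). Control cultures (3 libraries) were compared with cultures given cartilage fragments for 24 h at 5 to each macrophage (3 libraries, called stimulated here). Bone marrow came from the mice whose cartilage was taken, monocytes were enriched from it with a magnetic kit before culture, and no genotype or agent other than the fragments separated the groups. The comparison asks how macrophages respond to pieces of cartilage, as they would meet them in an osteoarthritic joint.

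TNF is an inflammatory cytokine that macrophages make as a membrane protein and release by cleavage. TNFR1 (Tnfrsf1a) is found on most cells and recruits adaptors and ubiquitin ligases to switch on NF-kappaB. Among these are TRAF2 and the cellular inhibitors of apoptosis (Birc2 and Birc3). TNFR2 (Tnfrsf1b) is found mainly on immune cells and recruits TRAF2 and TRAF1. NF-kappaB in turn induces genes that limit the signal, of which Tnfaip3 (the ubiquitin-editing enzyme A20) and its partner Tnip1 (ABIN-1) are the best known.

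The deposited values rest on an estimated 742707 to 776259 fragments per control library and 699110 to 754021 per stimulated library, which limits the precision of every gene of few fragments. This is far below the number of mapped reads per sample that the study's methods state, and the gap was not resolved. Nothing in the labels says that the cultures came from separate animals, so p-values measure the spread between these cultures, which may be technical. The study's methods give male mice, but Xist was at 19.8 to 23.6 FPKM in the 6 libraries and 4 genes of the Y chromosome (Uty, Kdm5d, Ddx3y, Eif2s3y) were listed at 0 in all of them. All 8 macrophage markers were present, and their summed level was 39478 to 60569 FPKM in controls and 40841 to 54717 FPKM in stimulated libraries, most of it Lyz2. Of these 8 markers, 7 were higher and 1 was lower in log2 fold change. Adgre1 (F4/80) and Cd14 were higher and passed in FPKM (log2 fold changes 0.59 and 0.63, limma adjusted p = 0.00824 and 0.0351). Itgam (0.26) also lay above the controls without overlap. It passed only in scaled fragments (limma adjusted p = 0.000133), where each gene's fragments are divided by those of the library. Groups overlapped for Fcgr1 (0.56), Mertk (0.13), Cd68 (0.11), Csf1r (0.01) and Lyz2 (-0.11). Of 12 chondrocyte markers in the files, 7 were listed at 0 in all libraries and none reached the minimum, with summed levels of 1.48 to 4.27 FPKM in controls and 1.24 to 2.41 FPKM in stimulated libraries. Of 10 neutrophil markers 8 were tested and none passed in FPKM (Mmp8 was lower in scaled fragments, limma adjusted p = 0.0438). Their sums were 999 to 1085 FPKM in controls and 875 to 1260 FPKM in stimulated libraries. Dendritic cell markers summed to 0.802 to 2.20 and 0.490 to 3.00 FPKM with none of 6 tested, and of 8 lymphocyte markers 7 were listed at 0 in all libraries, with Cd4 alone at 2.35 to 6.30 and 3.87 to 8.003 FPKM. The summed fibroblast and bone cell markers were lower in stimulated libraries, at 106 to 119 FPKM against 160 to 171 FPKM in controls. Most of it was Col1a1 and Col1a2. Both lay below the controls without overlap and past the threshold in scaled fragments (limma adjusted p = 2.13e-06 and 0.00363). Of 9 markers 5 were tested, with 4 lower and 1 (Dcn, log2 fold change 0.28) higher. Groups overlapped for Dcn, Col3a1 and Sp7. In these bulk libraries fewer cells of a type and less RNA per cell cannot be told apart. The part of Adgre1, Cd14, Itgam, Col1a1 and Col1a2 in the results that follow was not tested.

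Among the 10 genes, 9 had a higher mean and Tnfrsf1a a lower mean (on the log2 scale) with cartilage fragments. Tnf stood highest in change, at 3.62 times its control mean, followed by Tnfaip3 at 1.84 times. In 7 genes (Tnf, Tnfrsf1b, Tnfaip2, Tnfaip3, Tnip1, Traf1 and Birc3) all 3 stimulated libraries lay above all 3 controls, whereas 9.05% of all tested genes did so and 15.9% had groups without overlap in either direction. None of the 10 passed an adjusted p of 0.05 in FPKM by limma, where 0.395% of all tested genes passed, although 7 of the 10 and 969 of the 10392 genes had an unadjusted p under that value. When the scaled fragments, estimated from the deposited coverage, were tested instead, 6 of the 10 passed (Tnf, Tnfrsf1b, Tnfaip2, Tnfaip3, Tnip1 and Birc3), where 2.6% of all tested genes passed. Leaving out single libraries reduced these 6 to 2 without control replicate 1 or stimulated replicate 1 and to 3 without stimulated replicate 2. Over all tested genes 186, 157 and 159 passed in these fits, in that order, against 270 with all libraries. The median log2 fold change over the 10 genes was 0.44 in FPKM, against 0.0031 over all tested genes. The plots of levels by library and of fold changes show the values behind these counts.

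**Figure D1:**
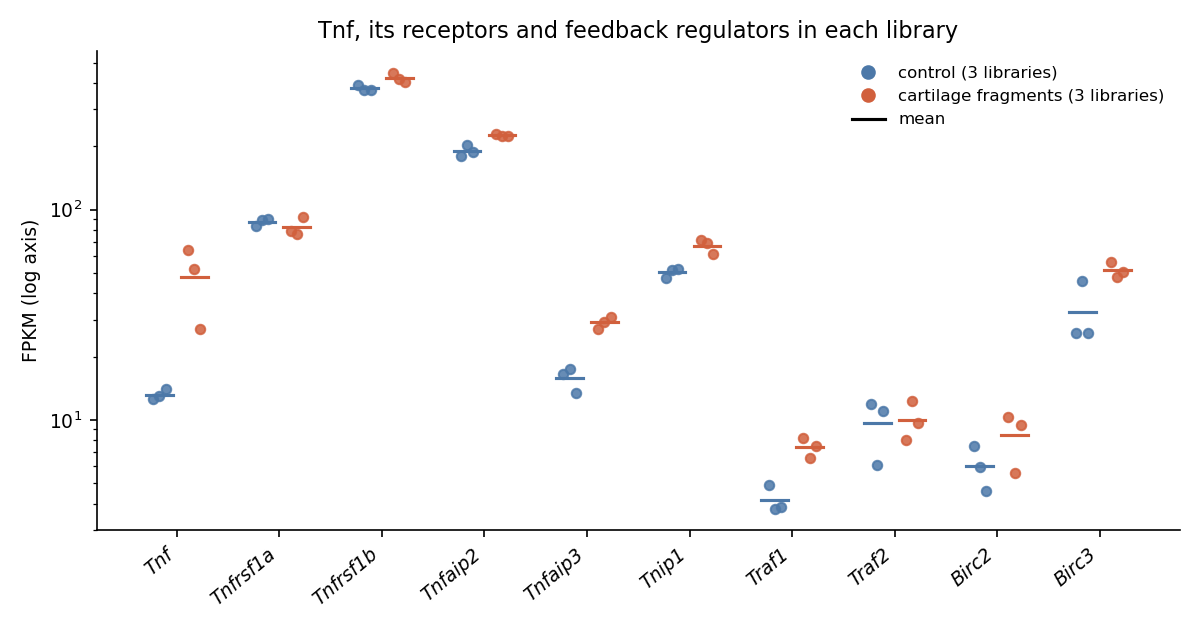
FPKM (log axis) of the 10 genes in each of the 3 control and 3 stimulated libraries, with each point a library and each bar a group mean. The groups are apart for 7 genes and overlap for Tnfrsf1a, Traf2 and Birc2, and on this log axis Tnf is the gene whose stimulated libraries spread most, from 27.0 to 64.0 FPKM.

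**Figure D2:**
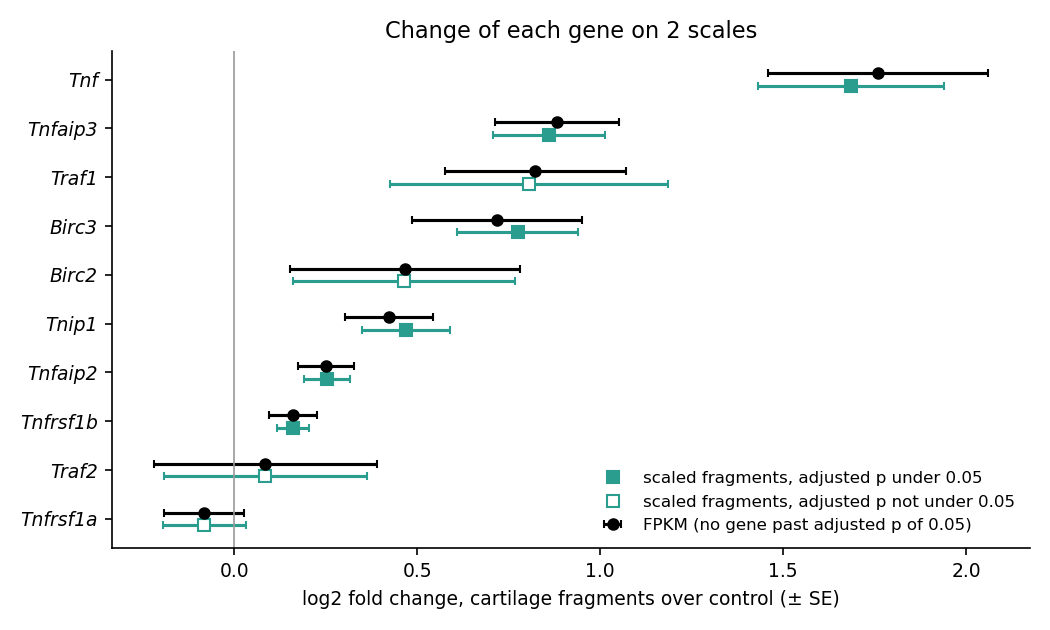
Log2 fold change of each gene (x axis, stimulated over control) with its standard error, in FPKM (circles) and in scaled fragments (squares, filled where the adjusted p from limma was under 0.05). The values of a gene differ little between the scales, and 6 genes are filled.

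Tnf (mm10, chr17:35199367-35202007, minus strand) encodes the ligand. Its level was 12.6, 12.9 and 14.1 FPKM in control replicates 1 to 3 and 64.0, 52.3 and 27.0 FPKM in stimulated replicates 1 to 3. The groups did not overlap, and stimulated replicate 3 had the lowest of the stimulated values while it still lay above every control. The means were 13.2 ± 0.781 and 47.8 ± 18.9 FPKM (SD, n = 3 each), a log2 fold change of 1.76 (SE, standard error, 0.301) with a limma adjusted p of 0.0754. These values rest on few fragments, an estimated 14.0, 14.1 and 15.0 in the controls and 61.6, 54.5 and 27.0 in the stimulated libraries. In scaled fragments Tnf rose, with a log2 fold change of 1.69 and a limma adjusted p of 2.64e-05, and it passed with each of the 6 libraries left out in turn. In FPKM it passed without stimulated replicate 3, where the log2 fold change was 2.13 (limma adjusted p = 0.00749). Over 14 alternatives in FPKM the log2 fold change lay between 1.504 and 2.13, and 2 of the 14 passed. Besides the fit without stimulated replicate 3, this was the fit with no filter on low values (limma adjusted p = 1.58e-11). There 11045 genes at 0 in all libraries enter. In the rest the limma adjusted p lay between 0.0504 and 0.311. Outside these, the log2 fold change was 1.38 (limma adjusted p = 0.326) when only the named transcript rows were summed. The 250 bases before the start of Tnf, from RefSeq on GRCm38.p6 (chr17:35202008-35202257, minus strand), are shown because Tnf changed most. The capitals mark the TATA box (TATAAA), which starts 29 bases before the start site.
Tnf: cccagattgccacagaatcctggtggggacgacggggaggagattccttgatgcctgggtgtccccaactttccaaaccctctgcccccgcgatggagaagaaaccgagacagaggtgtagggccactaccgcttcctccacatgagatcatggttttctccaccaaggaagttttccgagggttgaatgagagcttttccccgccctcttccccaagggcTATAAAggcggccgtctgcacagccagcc

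Both receptors lay above the ligand in every library and changed little. Tnfrsf1b (chr4:145212368-145246870, minus strand), which encodes TNFR2, was at 393, 373 and 372 FPKM in controls and 449, 417 and 405 FPKM in stimulated libraries. Every stimulated value lay above every control. The means were 379 ± 11.8 and 424 ± 22.9 FPKM (SD, n = 3 each), a log2 fold change of 0.16 (SE 0.0651, limma adjusted p = 0.509), and the rise passed in scaled fragments (limma adjusted p = 0.0372). With single libraries left out that p lay between 0.0171 and 0.358, and it passed only without stimulated replicate 3. Tnfrsf1a (chr6:125349723-125362483, plus strand), which encodes TNFR1, was at 83.3, 89.2 and 89.9 FPKM in controls and 79.2, 76.9 and 92.0 FPKM in stimulated libraries. These groups overlapped, with the highest and the lowest values both in stimulated libraries, and the log2 fold change was -0.08 (SE 0.109, limma adjusted p = 0.842; 0.858 in scaled fragments). Tnfrsf1b was thus 4.14 to 4.71 times as high as Tnfrsf1a in controls and 4.41 to 5.67 times as high in stimulated libraries, and these ranges overlap.

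Of the feedback regulators, Tnfaip3 (chr10:19000910-19015410, minus strand) showed the larger difference. It was at 16.5, 17.4 and 13.5 FPKM in controls and 27.0, 29.2 and 31.0 FPKM in stimulated libraries. The stimulated values lay above the controls and close together. Those of Tnf, also above their controls, were more spread. The means were 15.8 ± 2.06 and 29.1 ± 2.00 FPKM (SD, n = 3 each), a log2 fold change of 0.88 (SE 0.170, limma adjusted p = 0.108). In scaled fragments Tnfaip3 rose by 0.86 in log2 (limma adjusted p = 0.000345), and like Tnf it passed with each library left out in turn. Tnip1 (chr11:54910787-54962940, minus strand), whose product binds A20 and ubiquitin chains, was at 47.1, 51.5 and 52.2 FPKM in controls and 71.6, 69.1 and 61.7 FPKM in stimulated libraries. The groups did not overlap, with means of 50.3 ± 2.74 and 67.5 ± 5.19 FPKM (SD, n = 3 each). Its log2 fold change was 0.42 (SE 0.119, limma adjusted p = 0.268), and it passed in scaled fragments (0.47, limma adjusted p = 0.0209). That call held without control replicate 2 or stimulated replicate 3, and was lost without any of the other 4 libraries (limma adjusted p up to 0.151). Tnfaip3 stood at 0.259 to 0.350 of the level of Tnip1 in controls and at 0.377 to 0.503 in stimulated libraries, without overlap. The ratios of Tnfrsf1b to Tnfrsf1a, Birc3 to Birc2 and Traf2 to Traf1 overlapped between the groups. How often ratios of other gene pairs lie apart was not tested. Tnfaip2 (chr12:111442661-111455018, plus strand), named for its induction by TNF and known for a role in membrane protrusions, was at 180, 203 and 188 FPKM in controls and 230, 224 and 225 FPKM in stimulated libraries. Every stimulated value was above every control, by a small margin. The log2 fold change was 0.25 (SE 0.0758, limma adjusted p = 0.316), and the rise passed in scaled fragments (limma adjusted p = 0.0164). It was lost there when stimulated replicate 1 (0.118) or 2 (0.0802) or control replicate 1 (0.154) was left out. The annotation places the antisense gene Gm40578 over Tnfaip2, and the pseudogenes Gm12230 and Gm13433 inside Tnip1 and Traf2. All lie on the opposite strand and none is listed in the files. The library kit keeps strand, but whether the counting used it is not given in the sources used here.

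A promoter of each of these 3 genes is shown because it held a match to the consensus (kappaB) of NF-kappaB, the factor that TNF receptors activate. The kappaB letters are GGGRNYYYCC, with R for A or G, Y for C or T and N for any base. All 10 symbols matched the RefSeq promoter table on GRCm38.p6, with 12 promoters, and the 250 bases before each start were searched on both strands for the kappaB consensus, AP-1 (TGANTCA), CRE (TGACGTCA), the TATA box (TATAAA) and the GC box (GGGCGG). A kappaB match was present in 3 of the 12 promoters (3 of the 10 genes), and in 5.00% of all 32851 promoters of this length. The second promoter of Tnfaip3 (chr10:19011964-19012213, minus strand) held none. The shares of all promoters were 6.75% for AP-1, 1.55% for CRE, 12.4% for TATA and 32.7% for the GC box. The matches began 12 bases before the start in Tnfaip3 (chr10:19015411-19015660, minus strand), 57 bases before it in Tnip1 (chr11:54962941-54963190, minus strand) and 24 bases before it in Tnfaip2 (chr12:111442411-111442660, plus strand). The capitals mark the kappaB matches and, in Tnfaip3, also a TATA match that starts 225 bases before the start. Tnfaip3 also held AP-1 at 136 bases and Birc2 held CRE at 35 bases. The GC box was matched in Tnf, Tnfrsf1b, Tnfaip2, Tnip1, the first promoter of Tnfaip3 and the second of Birc2. A match describes these letters and is no evidence of binding.
Tnfaip3: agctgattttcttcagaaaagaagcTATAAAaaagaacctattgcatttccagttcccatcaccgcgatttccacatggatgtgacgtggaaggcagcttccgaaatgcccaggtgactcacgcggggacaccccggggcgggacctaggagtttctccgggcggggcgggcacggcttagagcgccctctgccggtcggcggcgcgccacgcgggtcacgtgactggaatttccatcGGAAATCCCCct
Tnip1: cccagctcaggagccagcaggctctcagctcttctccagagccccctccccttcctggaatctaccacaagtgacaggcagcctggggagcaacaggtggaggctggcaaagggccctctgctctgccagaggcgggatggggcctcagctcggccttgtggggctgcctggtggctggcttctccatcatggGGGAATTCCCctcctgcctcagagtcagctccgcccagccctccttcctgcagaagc
Tnfaip2: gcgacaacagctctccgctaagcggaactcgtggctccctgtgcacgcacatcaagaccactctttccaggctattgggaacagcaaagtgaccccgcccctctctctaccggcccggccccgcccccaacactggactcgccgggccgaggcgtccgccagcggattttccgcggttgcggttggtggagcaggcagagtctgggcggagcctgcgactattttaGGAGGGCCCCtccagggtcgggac

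Among the adaptors and ubiquitin ligases, Birc3 and Traf1 were higher without overlap and Birc2 and Traf2 were not. Birc3 (chr9:7848701-7873170, minus strand), which encodes cIAP2, was at 25.9, 45.8 and 25.8 FPKM in controls and 56.5, 47.8 and 50.7 FPKM in stimulated libraries. Control replicate 2 came near the stimulated libraries, and the others lay far below. The means were 32.5 ± 11.5 and 51.7 ± 4.47 FPKM (SD, n = 3 each), a log2 fold change of 0.72 (SE 0.232, limma adjusted p = 0.374), and Birc3 rose in scaled fragments (0.77, limma adjusted p = 0.00565). That call was lost when stimulated replicate 1 (0.0791) or 3 (0.0570) or control replicate 1 (0.0672) was left out, and in FPKM the direction turned to -3.11 when only the named transcripts were summed. Its neighbour Birc2 (chr9:7818226-7837057, minus strand), which encodes cIAP1 and lies 11643 bases from it, was at 7.48, 5.98 and 4.56 FPKM in controls and 10.3, 5.59 and 9.48 FPKM in stimulated libraries. Those groups overlapped through stimulated replicate 2 (log2 fold change 0.47, SE 0.314, limma adjusted p = 0.697), and the gene had an estimated 42.8 fragments in all controls and 57.5 in all stimulated libraries. Birc3 and Birc2 are related in sequence, and how reads shared by related genes were counted is not given in the sources used here. Traf1 (chr2:34943258-34961772, minus strand), an adaptor of TNFR2 that NF-kappaB induces, was at 4.91, 3.79 and 3.85 FPKM in controls and 8.23, 6.61 and 7.50 FPKM in stimulated libraries. No value of one group reached the other, but an estimated 20.1 fragments in all controls and 34.3 in all stimulated libraries stood behind them. Its log2 fold change of 0.82 (SE 0.248) had an adjusted p of 0.316 in FPKM and 0.391 in scaled fragments from limma. Traf2 (chr2:25517982-25546940, minus strand), the adaptor that brings the cIAP ligases to both receptors, was at 11.9, 6.12 and 11.0 FPKM in controls and 8.03, 12.3 and 9.67 FPKM in stimulated libraries. The groups overlapped, with the highest value in stimulated replicate 2 and the lowest in control replicate 2, and the log2 fold change was 0.08 (SE 0.304, limma adjusted p = 0.958), turning to -0.21 without control replicate 2 and to -0.07 without stimulated replicate 2.

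The rows named for a gene did not hold all of its signal in every library, which bears on Birc3, Tnip1, Tnfaip3, Tnf and Tnfrsf1a (5 of the 10 genes). Cufflinks had also assembled transcripts in single libraries, and these carry no symbol but share the gene number of the locus. They were counted with the gene here. From the named reference transcripts alone, Birc3 was at 25.9, 0 and 25.8 FPKM in controls and 0, 0 and 10.3 FPKM in stimulated libraries, which gave the turned direction (limma adjusted p = 0.798). Tnip1 was then at 13.1, 0 and 0 FPKM in controls and 25.2, 40.1 and 31.5 FPKM in stimulated libraries, a log2 fold change of 5.97 (limma adjusted p = 0.684) that depends on the 0.1 FPKM added. For Tnfaip3 the named transcripts gave 16.5, 17.4 and 13.5 FPKM in controls and 9.08, 14.8 and 18.8 FPKM in stimulated libraries, a log2 fold change of -0.20 (limma adjusted p = 0.841). All 3 stimulated libraries and no control library held an assembled Tnfaip3 transcript. For Tnf only stimulated replicate 1 had one, at 35.1 FPKM beside 28.9 FPKM for the reference transcript, and in Tnfrsf1a only stimulated replicate 2 had one, at 7.83 FPKM. Inside Birc3 a further assembled transcript with a gene number of its own was listed at 47.8 FPKM in stimulated replicate 1 and 38.0 FPKM in stimulated replicate 3, and it was not added. The reference transcripts of Tnfaip3 also alternated, with 7.00 FPKM for NM_001166402 and 9.48 FPKM for NM_009397 in control replicate 1, NM_009397 alone in control replicate 2 and NM_001166402 alone in control replicate 3. The split between transcripts of a gene is therefore not read as a change in isoforms.

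**Figure D3:**
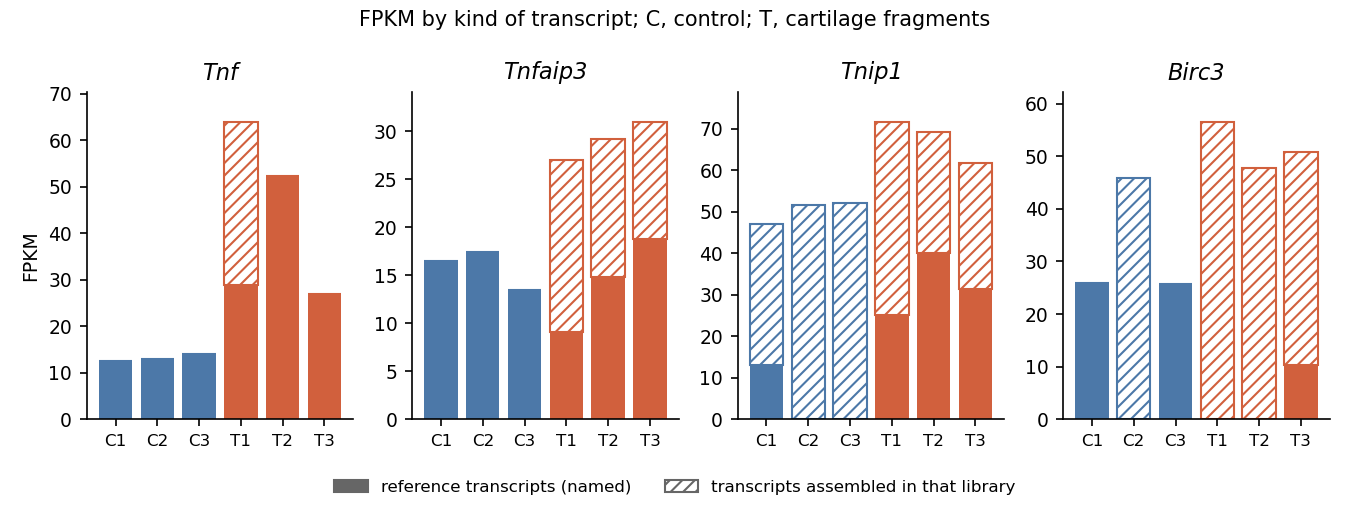
FPKM (y axis, each panel with its own scale from 0) of Tnf, Tnfaip3, Tnip1 and Birc3 in the control (C1 to C3) and stimulated (T1 to T3) libraries, with the part from named reference transcripts filled and the part from transcripts assembled in that library hatched. In Birc3 the filled part is 0 in 3 libraries, and the whole bars of the stimulated libraries stand above those of the controls in all 4 genes.

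In level, the 10 genes kept nearly 1 order in both groups: Tnfrsf1b, Tnfaip2, Tnfrsf1a, Tnip1 and Birc3, then Tnfaip3, Tnf, Traf2, Birc2 and Traf1 in controls, with Tnf and Tnfaip3 exchanged in stimulated libraries. On this length-scaled FPKM the neighbours Tnfrsf1b, Tnfaip2, Tnfrsf1a and Tnip1 were apart in controls, with no overlap between any adjacent pair. Tnfaip3 and Tnf overlapped in controls (13.5 to 17.4 and 12.6 to 14.1 FPKM) and in stimulated libraries (27.0 to 31.0 and 27.0 to 64.0 FPKM), so their order is not resolved. Traf2 and Birc2 overlapped in both groups, as did Birc2 and Traf1, and in stimulated libraries Birc3 overlapped with Tnf. Birc3 was 3.47 to 7.66 times as high as Birc2 in controls and 5.35 to 8.54 times in stimulated libraries, which overlap.

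The other genes of the pathway, listed by role, showed no shared direction. Of 109 genes, 108 were in the files and 83 were tested, of which 36 were higher and 47 lower and the median was -0.05 on the log2 scale. Groups did not overlap for 14 above and 7 below the controls, where 9.05% of all tested genes lay above and 15.9% were apart in either direction. In FPKM 1 of the 83 passed (0.395% of all tested genes), and in scaled fragments 8 were higher and 1 was lower (2.6% of all tested genes). The gene that passed in FPKM was Socs3, an inhibitor of cytokine signalling through JAK kinases. Its level was 3.61, 3.18 and 5.93 FPKM in controls and 18.1, 17.2 and 14.3 FPKM in stimulated libraries. Socs3 rose by 1.98 in log2 (limma adjusted p = 0.0295), but passed in FPKM with only 1 of the 6 libraries left out in turn, control replicate 3.

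Among 18 other feedback regulators tested, 10 were higher and 8 lower (median log2 fold change 0.21), and 6 rose in scaled fragments, against 2.6% of all tested genes that passed there. Besides Socs3 these were Nfkbia and Nfkbie, which encode inhibitors that hold NF-kappaB in the cytoplasm, Bcl3, a nuclear member of the same family, Tnip3, a relative of Tnip1, and N4bp1, an inhibitor of NF-kappaB activation. Their log2 fold changes in FPKM were 0.59 for Nfkbia, 0.96 for Nfkbie, 0.95 for Bcl3, 0.98 for Tnip3 and 0.68 for N4bp1. Of these 5, only Nfkbia had groups that overlapped. That adds no support, because the 5 were picked by the test on the same libraries. Over all tested genes 15.9% had groups apart in either direction. In this list Cyld, a deubiquitinase that restrains the pathway (-0.44), and Trib3 (-0.37) had the lowest values, and neither passed.

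Of 6 genes of ligand and receptor shedding, 4 were higher and 2 lower (median 0.11). Adam17, the protease that releases TNF and its receptors from the membrane, was at 62.7, 60.4 and 59.5 FPKM in controls and 89.4, 74.4 and 82.0 FPKM in stimulated libraries. The groups did not overlap, and the log2 fold change of 0.42 had an adjusted p of 0.231 in FPKM and of 0.00285 in scaled fragments from limma. Rhbdf1 (1.21), which helps Adam17 mature, and the Adam17 inhibitor Timp3 (-0.27) had overlapping groups, as did Frmd8 (-0.03), which stabilises the protease at the surface.

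Neither the TNFR1 complex nor the cell death arm held a gene that passed on either scale. Of 16 genes of the complex and its linear ubiquitin ligase, 7 were higher and 9 lower (median log2 fold change -0.03), between Traf5 (-0.45) and Chuk (-0.35), a kinase of the IKK complex, and Map3k7 (0.26, TAK1) and Rnf31 (0.31, HOIP). Of 11 genes of the death arm 6 were higher and 5 lower (median 0.05). Bid (0.73), which links death receptors to mitochondria, and Cflar (0.34), the inhibitor of caspase-8 that NF-kappaB induces, were above the controls without overlap, and Mlkl (-0.37) and Fadd (-0.28) overlapped.

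Of 14 genes that act on Tnf mRNA, 4 were higher and 10 lower (median log2 fold change -0.07). Mapkapk2 (MK2), the kinase that relieves repression of Tnf mRNA, rose in scaled fragments (limma adjusted p = 0.00204), from 111 to 122 FPKM in controls to 145 to 167 FPKM in stimulated libraries. Its upstream kinase Mapk14 (p38) had a log2 fold change of 0.32 with groups apart and did not pass. Zfp36l1, an RNA-binding protein of the tristetraprolin family that promotes decay of mRNAs with AU-rich elements, fell in scaled fragments (limma adjusted p = 0.0440), from 27.4 to 36.5 FPKM in controls to 17.1 to 21.7 FPKM. Tial1, which binds the same kind of element, had a log2 fold change of -1.28 in FPKM and of -0.22 in scaled fragments, and passed on neither scale.

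Other ligands and receptors of the superfamily were sparse. Of 17 ligands 5 were tested and 8 were listed at 0 in all libraries, among them Lta, the closest relative of Tnf. Tnfsf12 (TWEAK) was lower without overlap, at 55.9, 62.9 and 60.0 FPKM in controls and 39.0, 39.9 and 45.3 FPKM in stimulated libraries (log2 fold change -0.53, limma adjusted p = 0.177). Tnfsf9 (2.16), Ltb (-1.30) and Tnfsf13 (-0.06) were each at 0 in at least 1 library, so their log2 fold changes depend on the 0.1 FPKM added. In the ligand list 1 gene was higher and 4 were lower (median -0.26). Of 26 receptors 13 were tested and 8 were at 0 throughout, with 4 higher and 9 lower (median -0.34). Tnfrsf14 (HVEM, log2 fold change 0.91) and the costimulatory receptor Cd40 (1.82) were above the controls without overlap, Cd40 on an estimated 19.1 fragments in all 6 libraries. Tnfrsf26 was below the controls (-0.70, and -0.31 in scaled fragments) and Tnfrsf22 (-1.89), a decoy receptor of TRAIL, was at 0 in stimulated replicate 1, and none of the 13 passed on either scale.

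**Figure D4:**
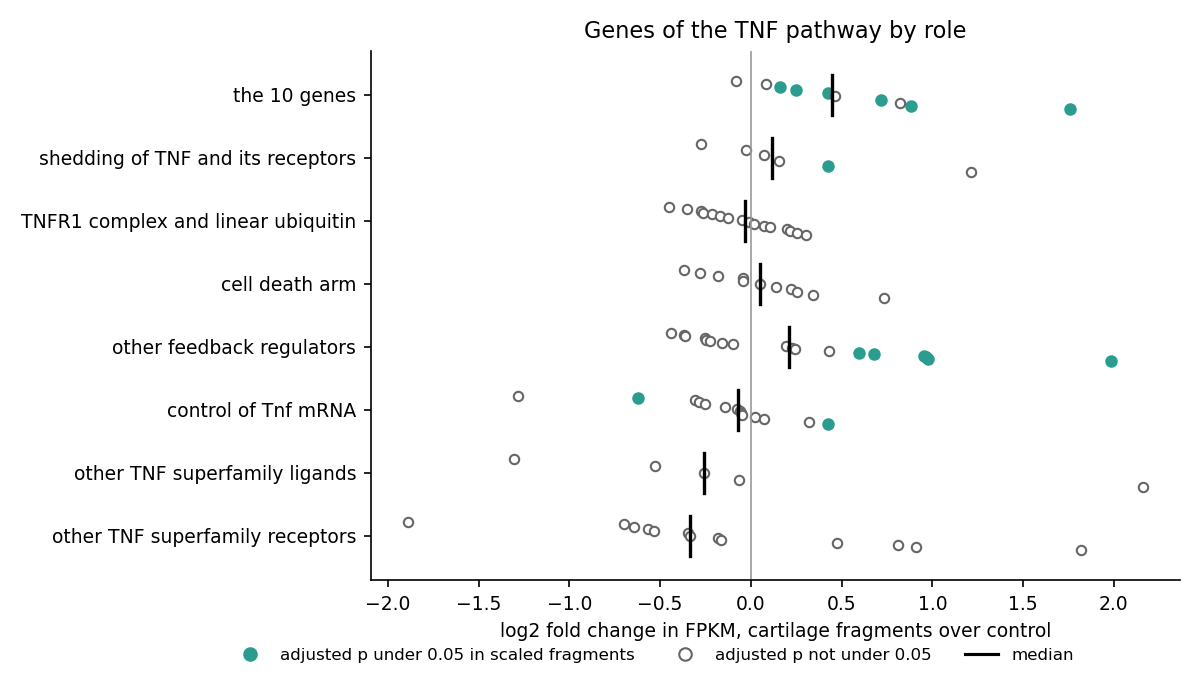
Log2 fold change in FPKM (x axis, stimulated over control) of each tested gene by role (y axis), with each point a gene, filled where the adjusted p from limma in scaled fragments was under 0.05, and the bar the median of the list. Filled points stand among the 10 genes, the other feedback regulators, shedding (Adam17) and the control of Tnf mRNA, and all but Zfp36l1 are to the right of 0.

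The 5 genes with at least 30 estimated fragments whose log2 FPKM followed Tnf most closely over the 6 libraries were Ell2 (Pearson r = 0.996), Fgr (0.992), Bst2 (0.989), Cd44 (0.988) and Tmsb4x (0.981). These were picked from all tested genes for their likeness, and the 6 points are 2 groups of 3, so that r describes the difference between the groups together with the order within them. In all 5, as in Tnf, stimulated replicate 3 was the lowest of the stimulated libraries. Fgr, a Src-family kinase of myeloid cells, was at 31.2, 31.3 and 33.4 FPKM in controls and 54.9, 50.9 and 43.8 FPKM in stimulated libraries. Of the 9 other genes described here, Tnip1 came nearest to Tnf (r = 0.980), and it too was lowest among stimulated libraries in replicate 3, whereas Tnfaip3 was highest there.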

How the data were processed

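RNA-seq was analysed in 6 libraries, 3 per group by the labels. The authors used TopHat and Bowtie for 100-bp paired-end reads on mm10 and then Cufflinks, and the deposited FPKM and coverage (mean read depth) are listed per transcript and library (versions are not given in the sources used here). The methods name TMM and removal of low FPKM, yet low values and zeros were present. Whether counting used strand is not given. FPKM were summed per symbol, with transcripts assembled in a library joined by gene number, whereas named rows alone were an alternative. The test ran on log2(FPKM + 0.1), for genes averaging 1 FPKM or more, in limma 3.58.1 (R 4.3.3; trend and robust). It was two-sided at 0.05 after adjustment by Benjamini and Hochberg. On that scale the change of low genes is understated. Fragments per gene were estimated from coverage, FPKM and read length. Of values up to 8 fragments, 94.8% to 95.5% lay within 0.1 of a whole number. The bases taken off transcript length in each library (210 or 220) were chosen to make this share largest. The share is therefore no independent check. Fragments were scaled to 1000000 per library and tested on the log2 scale with 0.5 added. An exact permutation test of 3 against 3 cannot give a p under 0.1. Replicates of a group differed by more than counting noise (mean chi-square per gene 1.24 to 1.35 over genes of 20 to 500 fragments). Same-numbered libraries did not deviate together, so no pairing was used.

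Genes named are the 10 genes, the genes of each role list past the threshold on either scale, the 2 largest rises and falls of each list, and the 5 genes most like Tnf. Members, lists and the test on scaled fragments were chosen with earlier results of these data known. Values, tables and figures used Python 3.11.15, pandas 2.3.3, numpy 2.4.6 and matplotlib 3.10.9. The fit was also run on simulated counts with known changes. These held no transcripts assembled in single libraries, so that run says nothing on how such transcripts affect the values.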

Additional observations from a re-analysis of the deposited data

How the results depend on the processing

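Alternatives changed the pseudocount, the filter, the scaling, the transcript status, the moderation of variances, the transcripts summed and the unit, or left out each library. Of the 10 genes, 0 passed in FPKM, against 3 with no filter on low values, where 11045 genes at 0 in all libraries enter the fit, and 6 in scaled fragments. With single libraries left out 0 to 1 passed in FPKM, the 1 being Tnf without stimulated replicate 3, and 2 to 5 of the 6 passed in scaled fragments (leaving out libraries in that unit was added after the data were seen). Over all tested genes 157 to 229 passed in those fits on scaled fragments, against 270 with all libraries. Tnf had a log2 fold change of 1.76 with no filter (limma adjusted p = 1.58e-11), 1.69 in scaled fragments and 1.504 to 2.13 with single libraries left out. Of the other pathway genes 1 passed, against 9 with no filter, 9 in scaled fragments, 0 with reference transcripts only, 0 without trend and robust moderation and 0 to 1 with single libraries left out. Directions turned for Birc3 (-3.11) and Tnfaip3 (-0.20) with reference transcripts only, and for Traf2 without control replicate 2 (-0.21) or stimulated replicate 2 (-0.07; range with single libraries left out -0.21 to 0.26). Over all genes 41 passed, against 326 with no filter, 19 with reference transcripts only, 270 in scaled fragments, 19 without trend and robust moderation, and 12 without stimulated replicate 1. The cause of these changes was not tested.

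With the replicate number as a block (replicate block) 0 of the 10 genes, 0 other pathway genes and 18 of all genes passed. Same-numbered libraries correlated at -0.035, 0.0097 and -0.029 in their deviations from the group means, so the numbers were not taken as pairs. Of the 10 genes, Tnf, Traf1, Traf2 and Birc2 had the fewest estimated fragments. A call missed there does not show that a gene did not differ, and the part of depth in the calls was not tested.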
